A study of Mus musculus with 8 samples.

Results

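The 10 genes *Fasn*, *Acaca*, *Elovl5*, *Elovl6*, *Scd1*, *Scd2*, *Fads1*, *Fads2*, *Acsl3* and *Fabp5*, whose products make, lengthen, desaturate, activate or carry fatty acids, were taken by their symbols from the 24059 gene symbols counted in each library, and all 10 were among the 14934 genes that passed the filter on low counts. The libraries came from bone marrow–derived mast cells (BMMCs) of C57BL/6 mice, which are bone marrow cells cultured with IL-3 for 4 weeks or more until they are mast cells. Cells of 4 mice were transfected with complexes of Cas9 protein and guide RNA (RNPs) and kept in culture for 1 week. The Scrambled RNP group (4 samples, genotype labelled Zc3h12a WT) received a non-targeting guide, and the Zc3h12a RNP group (4 samples, genotype labelled Zc3h12a KO) received guides against *Zc3h12a*, which encodes the RNA-degrading protein Regnase-1. Both groups received Cas9, and the Zc3h12a RNP samples are whole transfected cultures, not clones, so they can hold unedited cells. In such bulk RNA a lower level cannot be told apart as fewer cells of a kind or less RNA per cell.

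Fatty acid synthesis starts in the cytosol, where acetyl-CoA carboxylase makes malonyl-CoA and fatty acid synthase builds palmitate from it. Elongases of the endoplasmic reticulum add carbons to palmitate or to dietary fatty acids, desaturases place double bonds in the chain, and acyl-CoA synthetases activate free fatty acids so that they can enter membranes and stored lipids. Many of these genes are known targets of the SREBP transcription factors and of the liver X receptors (LXRs). Mast cells use long unsaturated fatty acids as membrane lipids and as the source of prostaglandins and leukotrienes.

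After *Zc3h12a* RNP the mRNAs of the desaturases *Scd1*, *Scd2* and *Fads2*, of the synthetase *Acsl3* and of *Fabp5* had lower values than in the Scrambled samples, and none of these differences passed the test over all genes. *Scd1* was 62.6% lower, *Scd2* 45.0%, *Fabp5* 39.4%, *Fads2* 32.1% and *Acsl3* 29.0% lower on the scale of the fitted fold change, each in 4 of 4 pairs of samples with the same replicate number. *Elovl5* and *Fads1* were also lower in 4 of 4 pairs, by smaller amounts. *Fasn*, *Acaca* and *Elovl6* were higher in some pairs and lower in others. In edgeR's quasi-likelihood test, blocked by replicate number and adjusted over 14934 genes, 0 of these 10 differences had an adjusted p at or under 0.05.

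Of the 10 genes, 0 were called lower and 0 higher, where a call needed an adjusted p at or under 0.05 and a log2 fold change beyond 0.5, and 0 percent of the 14934 genes tested were called in either direction. At an unadjusted p at or under 0.05 in edgeR, 6 of the 10 genes were lower (*Scd1*, *Scd2*, *Fads2*, *Elovl5*, *Acsl3* and *Fabp5*) and 0 were higher, against 605 (4.05 percent) of all genes lower and 317 (2.12 percent) higher. In all 4 pairs 7 of the 10 genes were lower, against 8.54 percent of all genes tested and 11.8 percent of the 8660 genes with a mean log2 CPM above 3. For 9 of the 10 genes the log2 fold change was negative, against 42.2 percent of all genes and 52.3 percent of those 8660. *Scd1*, *Scd2*, *Fads2* and *Fabp5* were lower in all 4 pairs and had a log2 fold change under -0.5, against 1.08 percent of all genes. The study had named 5 of the 10 genes (*Scd1*, *Scd2*, *Acsl3*, *Fads2* and *Fabp5*) as lower from the same libraries, so that 5 of the 10 point one way is no independent evidence. The study's rule was another one, a p at or under 0.05 and a log2 fold change beyond 0.5. It combined DESeq2, edgeR and limma, and its methods do not state that the p was adjusted. The count of 6 was 5, without *Elovl5*, when replicate 1, 2 or 3 was left out, with DESeq2's size factors in edgeR and with no filter on low counts. The median log2 fold change of the 10 genes was -0.36, and that of all genes tested was 0.04. For 10 of 10 genes the ranges of the 4 Scrambled and the 4 Zc3h12a RNP samples overlapped, and 0.663 percent of all genes had lower values in every Zc3h12a RNP sample than in any Scrambled one.

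The libraries held between 19610240 and 33986762 counts in the Scrambled group and between 23712029 and 28564062 in the Zc3h12a RNP group. *Zc3h12a* itself was at 24.9, 38.0, 37.1 and 39.3 CPM (counts scaled to library size with TMM factors) in Scrambled replicates 1 to 4 and at 26.8, 41.1, 32.2 and 32.6 CPM in Zc3h12a RNP replicates 1 to 4. The fitted log2 difference was -0.06 ± 0.10 (SE, adjusted p = 0.960 in edgeR), so its mRNA level did not tell the groups apart, and a level of mRNA does not show whether the coding sequence was cut. The 8 mast cell markers summed to 50670 to 60604 CPM in the Scrambled samples and 49025 to 51916 CPM after *Zc3h12a* RNP. Most of this sum was *Cpa3*, at 26727.5 to 34240 CPM and 26761 to 30487.5 CPM. *Kit* and *Fcer1a* had log2 fold changes of -0.06 and -0.02. Of the 8 markers 7 were lower, against 42.2 percent of all genes tested and 52.3 percent of the 8660 genes with a mean log2 CPM above 3. *Tpsb2* was the 1 marker lower at an unadjusted p at or under 0.05, against 4.05 percent of all genes. Its log2 fold change was -0.28, with 4 of 4 pairs lower (unadjusted p = 0.00708, adjusted p = 0.554 in edgeR). The part of the markers in the results was not tested. The markers of adipocytes and stroma, which express several of the 10 genes strongly, summed to 0.533 to 4.76 CPM and to 1.63 to 4.37 CPM, and those of macrophages to 8.51 to 11.4 CPM and to 8.95 to 12.0 CPM. Those of basophils summed to 500 to 541 CPM and to 445 to 510 CPM, nearly all from *Cd200r3*. Those of T cells summed to 0.466 to 5.61 CPM and to 2.32 to 4.93 CPM, and erythroid ones to 1.38 to 3.71 CPM and to 0.714 to 2.22 CPM. Of the markers of neutrophils and of B cells 0 passed the filter on low counts. Scrambled replicates 2 and 4 lay at the ends of the first principal component of all genes tested (65.7% of the variance), and the calls without each of these replicate numbers are given with the other tests.

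In reads per length of exon, *Scd2* had the highest mean of the 10 genes in both groups. In the Scrambled samples the mean was 70.0 CPM per kb for *Scd2*, with a range of 44.4 to 97.2. *Fads2*, *Elovl5*, *Fads1* and *Fasn* followed at means of 33.9, 32.7, 32.4 and 31.9 CPM per kb, and the ranges of these 4 genes overlapped, so their order is not set by these samples. *Fabp5* (16.7) and *Scd1* (15.2 CPM per kb) formed the next level, and *Acsl3* (3.41), *Acaca* (3.38) and *Elovl6* (2.26 CPM per kb) the lowest. After *Zc3h12a* RNP the means were 40.6 CPM per kb for *Scd2*, 32.4 for *Fasn*, 29.4 for *Fads1*, 28.1 for *Elovl5* and 23.4 for *Fads2*, and the ranges of all 5 genes overlapped, with *Scd2* between 24.8 and 75.4. *Scd2* was the highest of the 10 genes in every Scrambled sample but only in replicate 4 of the Zc3h12a RNP samples. *Fabp5* stood at 9.38 and *Scd1* at 5.99 CPM per kb, above *Acaca* (3.24), *Acsl3* (2.41) and *Elovl6* (2.07). Exon length here is the union of all annotated exons of a gene, so genes with many rare transcripts are shown too low on this scale. For *Fabp5* this union is 3667 bases against 993 in the canonical transcript, and for *Fasn* it is 11706 against 10789. The levels and the order given here, that of *Fabp5* most of all, therefore depend on this choice of length.

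**Figure D1:**
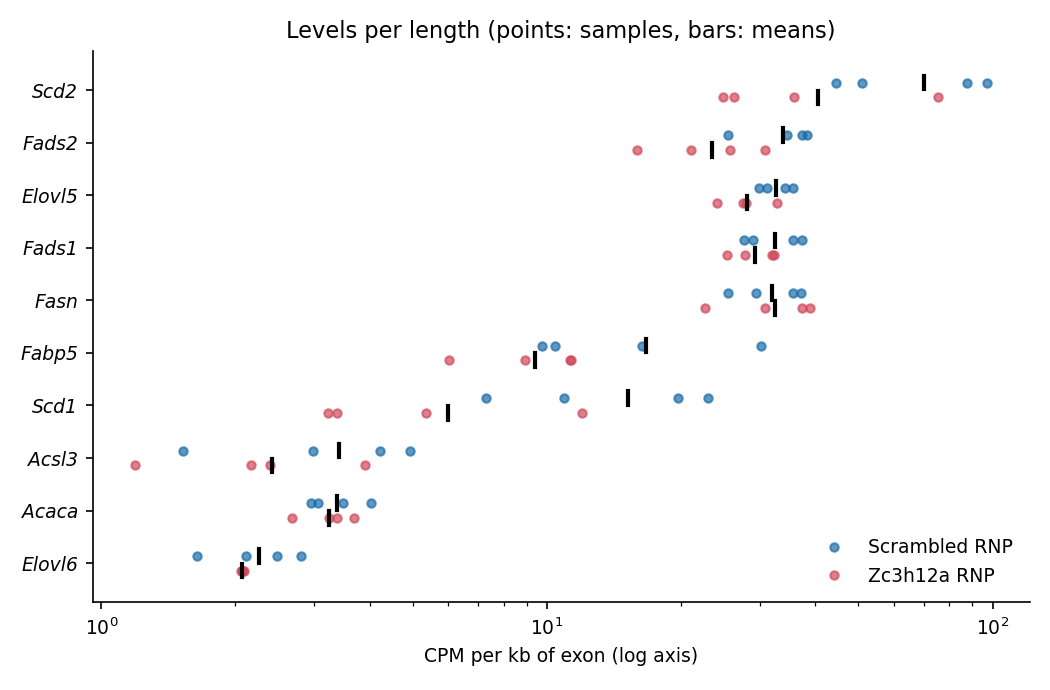
Level of each gene in CPM per kb of exon, with all annotated exons counted in the length, on a log axis. Each point is 1 sample, blue for Scrambled RNP and red for Zc3h12a RNP, and black bars are group means of 4 samples. *Scd2* lies furthest to the right at a mean of 70.0 and 40.6, *Fads2*, *Elovl5*, *Fads1* and *Fasn* share a band, and *Acsl3*, *Acaca* and *Elovl6* lie at the low end.

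*Fasn* encodes fatty acid synthase, which builds palmitate. It lies on chromosome 11 from 120696672 to 120715995 on the minus strand (GRCm39, as are all coordinates here). Its level was 436, 417, 298 and 344 CPM in Scrambled replicates 1 to 4 and 455, 362, 265 and 437 CPM in Zc3h12a RNP replicates 1 to 4. The Zc3h12a RNP sample was the higher one in pairs 1 and 4 and the lower one in pairs 2 and 3, and the group means were 374 ± 63.9 and 379.7 ± 86.3 CPM (SD, n = 4). The log2 fold change was 0.0084 with a 95% interval of -0.24 to 0.26 (adjusted p = 0.993 in edgeR).

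*Acaca* encodes acetyl-CoA carboxylase 1, which supplies the malonyl-CoA that fatty acid synthase uses. It spans chromosome 11 from 84020476 to 84292477 on the plus strand. It stood at 74.3, 64.2, 54.3 and 56.3 CPM in the Scrambled samples and at 67.8, 62.1, 49.3 and 59.5 CPM after *Zc3h12a* RNP. The groups overlapped along most of their range, with means of 62.3 ± 9.08 and 59.7 ± 7.70 CPM (SD, n = 4), and the log2 fold change was -0.06 (95% interval -0.24 to 0.12, adjusted p = 0.960 in edgeR). Of the 50-base words of the *Acaca* transcript, 65.3% also occur elsewhere in the genome, most of them in the processed pseudogene *Gm5182* on chromosome 12. How the counting treated reads with several matches is not given in the sources used here, so the *Acaca* counts are uncertain.

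*Elovl5* and *Elovl6* encode elongases: ELOVL5 acts on polyunsaturated chains, and ELOVL6 lengthens palmitate and other chains of similar length. *Elovl5* (chromosome 9, 77818113 to 77891802, plus strand) stood at 202, 169, 177 and 194 CPM in the Scrambled samples and at 156, 137, 159 and 186 CPM after *Zc3h12a* RNP. Each Zc3h12a RNP sample was below its partner, though the sample of replicate 4 was above 2 of the Scrambled samples. The means were 186 ± 15.1 and 159.6 ± 20.3 CPM (SD, n = 4), and the log2 fold change was -0.22 (95% interval -0.42 to -0.02, unadjusted p = 0.0326, adjusted p = 0.744 in edgeR). Without replicate 1 it was -0.13 and without replicate 2 also -0.13 (unadjusted p = 0.478 and 0.445 in edgeR), and without replicate 3 it was -0.30 (unadjusted p = 0.0684).

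*Elovl6* (chromosome 3, 129326004 to 129432144, plus strand) had the lowest mean of the 10 genes per length, with a range that overlapped that of *Acsl3*, which was below it in replicate 2 of both groups. It stood at 17.9, 21.02, 23.8 and 13.9 CPM in the Scrambled samples and at 17.6, 17.8, 17.5 and 17.4 CPM after *Zc3h12a* RNP. The 4 Zc3h12a RNP values lay within the Scrambled range and were close to each other (17.6 ± 0.147 CPM, against 19.2 ± 4.25 CPM, SD, n = 4). The pair differences were -0.02, -0.24, -0.44 and 0.33 on the log2 scale, and the log2 fold change was -0.10 (95% interval -0.40 to 0.20, adjusted p = 0.960 in edgeR).

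*Scd1* and *Scd2* encode stearoyl-CoA desaturases, the enzymes that place the first double bond in saturated chains and so make oleate and palmitoleate. Both genes lie on chromosome 19, *Scd1* from 44382894 to 44399154 on the minus strand and *Scd2* from 44281613 to 44295303 on the plus strand, with 87.6 kb between them. *Scd1* stood at 142, 52.6, 78.9 and 166 CPM in Scrambled replicates 1 to 4 and at 38.6, 23.2, 24.4 and 86.4 CPM in Zc3h12a RNP replicates 1 to 4. Replicates 1 and 4 were high and replicates 2 and 3 low in the Scrambled group, replicate 4 alone was high after *Zc3h12a* RNP, and that sample lay above the lowest pair of Scrambled values, so the groups overlap. Within pairs the log2 difference was -1.87, -1.18, -1.69 and -0.94. The fitted 95% interval of the log2 fold change was -1.79 to -1.05, and *Scd1* had rank 3 among the 14934 genes by its unadjusted p (3.05e-05 in edgeR, adjusted p = 0.152).

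*Scd2* stood at 658, 334, 384 and 732 CPM in the Scrambled samples and at 269.9, 187, 198 and 568 CPM after *Zc3h12a* RNP. The samples took the same order as for *Scd1*: replicates 1 and 4 were high in the Scrambled group and replicate 4 was high after *Zc3h12a* RNP, above 2 of the 4 Scrambled values. The log2 difference was -1.28, -0.84, -0.95 and -0.37 in pairs 1 to 4, with a fitted 95% interval of -1.19 to -0.53 (unadjusted p = 0.00039, adjusted p = 0.401 in edgeR). The smallest difference of both genes was in pair 4.

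*Scd1* was lower by a larger factor than *Scd2* in 4 of 4 pairs. *Scd1* reads made up 17.7, 13.6, 17.0 and 18.5% of all *Scd1* and *Scd2* reads in Scrambled replicates 1 to 4 and 12.5, 11.1, 10.95 and 13.2% in Zc3h12a RNP replicates 1 to 4. The highest Zc3h12a RNP share, 13.2%, had an exact binomial 95% interval of 12.8 to 13.7%, and the lowest Scrambled share, 13.6%, one of 12.97 to 14.2%; the intervals cover counting error only. So the groups did not overlap in this share, by a gap smaller than the counting error of these 2 samples. The log2 ratio of *Scd1* to *Scd2* differed by -0.59, -0.33, -0.74 and -0.57 in pairs 1 to 4, with a mean of -0.56 ± 0.17 (SD, n = 4). In an exact two-sided permutation test that turns the sign of each pair, 2 of 16 assignments gave a mean of this size, which is the smallest share that 4 pairs allow and cannot reach 0.05. The comparison of 1 gene with the other depends on neither library size nor TMM scaling. Of the 50-base words of their transcripts, 4.12% for *Scd1* and 2.89% for *Scd2* also occur elsewhere in the genome. In a direct comparison of the transcripts, without the genome, *Scd1* and *Scd2* shared 145 words.

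**Figure D2:**
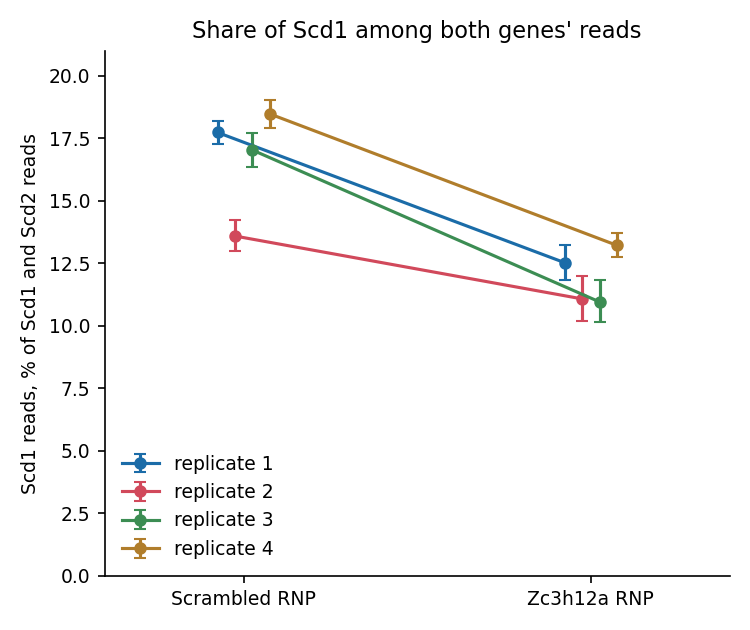
Share of *Scd1* among the summed *Scd1* and *Scd2* reads (percent, axis from 0) in each sample; bars are exact binomial 95% intervals and lines join samples of a replicate number. All 4 lines slope down, from 13.6 to 18.5% in the Scrambled group to 10.95 to 13.2% after *Zc3h12a* RNP.

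*Fads1* and *Fads2* encode the delta-5 and delta-6 desaturases, which turn dietary linoleic and linolenic acid into arachidonic and other long polyunsaturated fatty acids. They also lie on chromosome 19, *Fads1* from 10160167 to 10174241 on the plus strand and *Fads2* from 10038130 to 10079203 on the minus strand, pointing away from each other across 81.0 kb. *Fads2* stood at 250.5, 166, 226 and 243 CPM in the Scrambled samples and at 169, 104, 138 and 202 CPM after *Zc3h12a* RNP. Replicate 2 was the lowest in both groups, and 2 of the 4 Zc3h12a RNP samples lay above that Scrambled value. The means were 222 ± 38.2 and 153 ± 41.9 CPM (SD, n = 4), with pair differences of -0.57, -0.68, -0.72 and -0.27 on the log2 scale and a fitted 95% interval of -0.78 to -0.33 (unadjusted p = 0.000529, adjusted p = 0.401 in edgeR).

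*Fads1* differed less than its neighbour. It stood at 209, 155, 163 and 199.96 CPM in the Scrambled samples and at 179, 142, 156 and 181 CPM after *Zc3h12a* RNP. Each pair was lower, by -0.22, -0.12, -0.06 and -0.15 on the log2 scale, and the groups overlapped widely. The log2 fold change was -0.14 with a 95% interval of -0.31 to 0.04 (unadjusted p = 0.103, adjusted p = 0.918 in edgeR), and it was -0.07 without replicate 1, -0.08 without replicate 2 and -0.22 without replicate 3. The log2 ratio of *Fads2* to *Fads1* was lower in 4 of 4 pairs, by -0.35, -0.55, -0.65 and -0.12, a description without a test.

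*Acsl3* encodes a long-chain acyl-CoA synthetase of the endoplasmic reticulum and of lipid droplets, and lies on chromosome 1 from 78635537 to 78685461 on the plus strand. It stood at 16.3, 8.30, 23.0 and 26.8 CPM in the Scrambled samples and at 11.8, 6.50, 13.04 and 21.3 CPM after *Zc3h12a* RNP. As for *Scd2* and *Fads2*, replicate 2 was the lowest and replicate 4 had the highest level after *Zc3h12a* RNP, and the groups overlapped. The pair differences were -0.46, -0.35, -0.81 and -0.33, and the 95% interval of the log2 fold change was -0.75 to -0.24 (unadjusted p = 0.00216, adjusted p = 0.424 in edgeR).

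*Fabp5* encodes a small cytosolic protein that binds fatty acids and carries them within the cell, and lies on chromosome 3 from 10077602 to 10081674 on the plus strand. It stood at 111, 59.8, 38.2 and 35.7 CPM in the Scrambled samples and at 41.2, 41.5, 32.7 and 22.1 CPM after *Zc3h12a* RNP. Unlike the desaturases, *Fabp5* was high in Scrambled replicate 1 alone and lowest in replicate 4 of both groups. The pair differences were -1.42, -0.53, -0.22 and -0.69, so pair 1 was the most different, and without it the log2 fold change was -0.44. The 95% interval with all 4 pairs was -1.14 to -0.30 (unadjusted p = 0.00433, adjusted p = 0.480 in edgeR). Since 43.3% of the 50-base words of its transcript also occur elsewhere, mostly in the processed pseudogenes *Gm18103* and *Gm6166* on chromosome 9, the counts of *Fabp5* are uncertain as well.

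**Figure D3:**
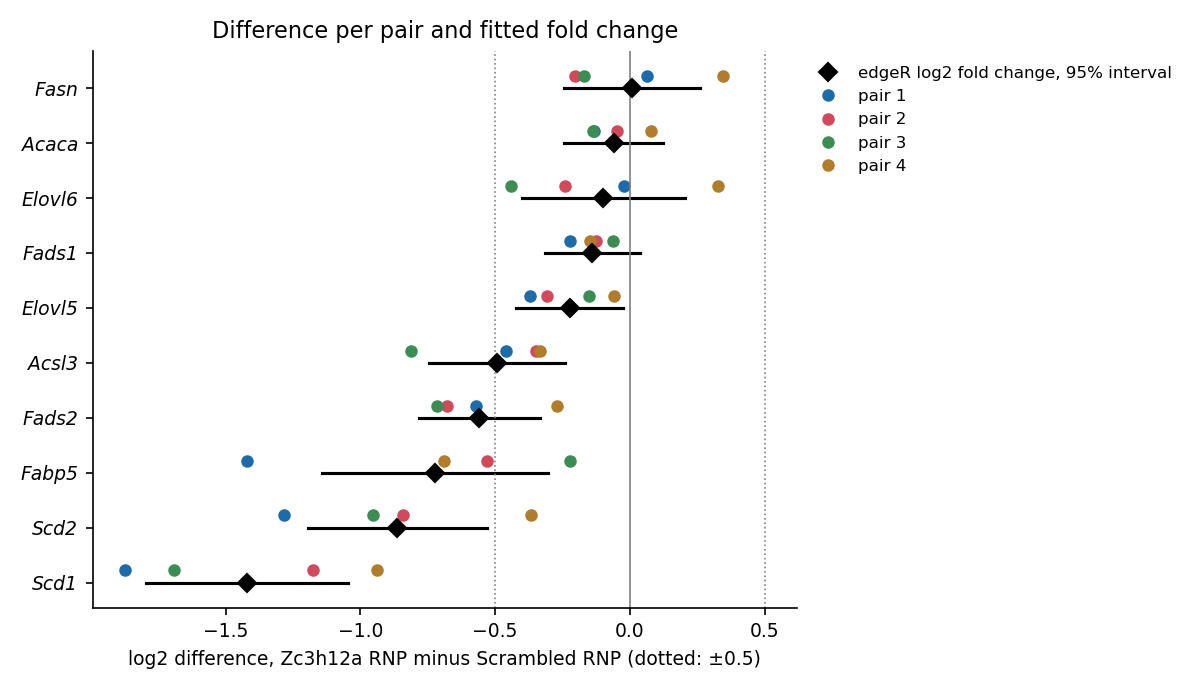
Log2 difference between Zc3h12a RNP and Scrambled RNP for each gene; coloured points are the 4 pairs, diamonds the edgeR log2 fold change and lines its 95% interval, with dotted lines at 0.5 and -0.5. The interval lies below 0 for *Elovl5*, *Acsl3*, *Fads2*, *Fabp5*, *Scd2* and *Scd1*, and includes 0 for *Fasn*, *Acaca*, *Elovl6* and *Fads1*.

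By pairs, 9, 10, 10 and 7 of the 10 genes were lower in pairs 1, 2, 3 and 4. Of all genes tested, 45.9, 48.8, 49.1 and 55.7 percent were lower in these pairs. The median log2 difference of the 10 genes was -0.42, -0.33, -0.33 and -0.21 in these pairs, against 0.03, 0.01, 0.01 and -0.06 for all genes tested. Set against *Fasn* within the same libraries, *Fads2* had a lower log2 ratio in every pair, with differences of -0.63, -0.47, -0.55 and -0.61, with a mean of -0.57 ± 0.07 (SD, n = 4). The same ratio had a mean of -1.43 ± 0.41 for *Scd1* and of -0.50 ± 0.24 for *Acsl3*, which differed by only -0.14 in pair 2. These 3 genes and *Fasn* were chosen with their values known, and the ratios were not tested.

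*Scd1*, *Acsl3*, *Fabp5* and *Scd2* varied more among the control samples than the other 6 genes. The SD of log2 CPM over the 4 Scrambled samples was 0.77 for *Scd1*, 0.75 for *Acsl3*, 0.75 for *Fabp5* and 0.56 for *Scd2*, against a median of 0.30 over the 8660 genes with a mean log2 CPM above 3. It was 0.33 for *Elovl6*, 0.27 for *Fads2*, 0.25 for *Fasn*, 0.21 for *Fads1* and *Acaca* and 0.12 for *Elovl5*. With no replicate block, which leaves this spread in the error, 3 of the 10 genes (*Scd1*, *Fads2* and *Fabp5*) were lower at an unadjusted p at or under 0.05 in edgeR, against 0.596 percent of all genes.

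Whether any of the 10 genes was called depended on the test. In DESeq2's Wald test 4 of them (*Scd1*, *Scd2*, *Fads2* and *Fabp5*) were called lower, against 0.335 percent of all genes. The same 4 genes were called with limma-trend on values from which the replicate effect had been removed, a procedure that does not count the removed effect in its degrees of freedom, against 0.529 percent of all genes. With no filter on low counts 3 genes (*Scd1*, *Scd2* and *Fabp5*) were called, against 0.132 percent, and with at least 10 counts in every sample *Scd1* was, against 0.0252 percent. Without replicate 2, *Scd1*, *Scd2* and *Fabp5* were called in edgeR, against 0.378 percent of all genes, and without replicate 4 *Scd1* was, against 0.0134 percent. *Fads1*, *Elovl5*, *Elovl6*, *Acsl3*, *Fasn* and *Acaca* were called in 0 of the 12 alternatives.

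Other genes of the pathway were read from 7 lists with 67 genes, of which 54 were tested. Of these 54, 26 were lower and 28 higher, against 42.2 percent lower of all genes tested. Their median log2 fold change was 0.01. At an unadjusted p at or under 0.05 in edgeR 4 were lower and 2 higher, against 4.05 and 2.12 percent of all genes. Of the 54, 0 were called. In all 4 pairs 5 were lower and 4 higher, against 8.54 and 4.98 percent of all genes tested.

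Among the 8 genes of carbon supply, 5 were higher and 3 lower, against 42.2 percent of all genes lower, with a median of 0.13. The higher *Acacb* and *Thrsp* had Scrambled means of only 0.446 and 0.556 CPM. Their log2 fold changes were 0.43 and 0.86, with standard errors of 0.64 and 0.88. *Acss2*, which makes acetyl-CoA from acetate, was at 143 ± 13.8 in the Scrambled and 169.9 ± 25.9 CPM in the Zc3h12a RNP samples (SD, n = 4), with all 4 pairs higher (log2 fold change 0.24, standard error 0.089, unadjusted p = 0.0287 in edgeR). *Me1*, the cytosolic malic enzyme that makes NADPH, stood at 17.2 ± 5.25 and 22.8 ± 2.92 CPM, again with all 4 pairs higher (log2 fold change 0.44, standard error 0.13, unadjusted p = 0.0102 in edgeR). *Idh1*, another source of cytosolic NADPH, was lower in 4 of 4 pairs (log2 fold change -0.25, unadjusted p = 0.0201 in edgeR). *Acly*, which makes the acetyl-CoA that *Acaca* and *Fasn* consume, was at 221 ± 29.3 and 217 ± 17.6 CPM (log2 fold change -0.02, unadjusted p = 0.831 in edgeR). Without 1 replicate number the log2 fold change ranged from 0.17 to 0.37 for *Acss2*, from 0.29 to 0.60 for *Me1* and from -0.31 to -0.17 for *Idh1*.

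Of 6 other desaturation genes 5 were lower, against 42.2 percent of all genes tested, with a median of -0.15. *Cyb5a*, the cytochrome b5 that hands electrons to the desaturases, was at 323 ± 34.7 and 277 ± 50.9 CPM (SD, n = 4), lower in 4 of 4 pairs (log2 fold change -0.24, unadjusted p = 0.0211 in edgeR). Its reductase *Cyb5r3* was at 146 ± 16.1 and 128 ± 25.0 CPM (unadjusted p = 0.0689 in edgeR). *Scd4*, another gene of the *Scd* cluster, had 18 to 81 counts per library and *Scd3* 0 to 9, so in these cells nearly all reads of the family came from *Scd1* and *Scd2*. Of 10 elongation genes 7 were higher and 3 lower, against 42.2 percent of all genes lower, with a median of 0.07. Of these 10, 0 passed an unadjusted p of 0.05. The higher *Elovl2* and *Elovl4* had Scrambled means of only 1.44 and 1.67 CPM. Their log2 differences were 2.11 and 2.14 in pair 2 and -1.55 and -1.43 in pair 4. Of 9 synthetase and uptake genes 7 were higher and 2 lower, against 42.2 percent of all genes lower, with a median of 0.19. An unadjusted p of 0.05 was passed by 0 of them, which leaves *Acsl3* as the 1 synthetase that did. The higher *Acsl6*, *Slc27a2*, *Slc27a5* and *Cd36* had Scrambled means of only 2.18, 0.81, 1.43 and 1.43 CPM. Their log2 differences were 3.23, 3.24, 3.64 and 3.31 in pair 2 and -1.69, -1.14, -2.04 and -1.31 in pair 4. *Fabp3*, *Fabp4* and the other *Fabp* genes listed did not pass the filter on low counts, so *Fabp5* was the 1 gene of its family tested; the 3 acyl-CoA binding genes had a median of -0.11. The 5 genes of mitochondrial fatty acid synthesis, a separate pathway, had a median of 0.02.

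Among 13 genes of transcriptional control 9 were lower, with a median of -0.05. The share lower was 42.2 percent of all genes tested and 52.3 percent of the 8660 genes with a mean log2 CPM above 3. *Insig1*, which holds the SREBP precursors in the endoplasmic reticulum and is itself an SREBP target, was at 216 ± 44.6 and 164 ± 27.4 CPM (SD, n = 4). The 4 pair differences were all negative, at -0.62, -0.38, -0.36 and -0.19 (log2 fold change -0.39, standard error 0.091, unadjusted p = 0.00326, adjusted p = 0.449 in edgeR). Without replicate 1, 2, 3 or 4 the log2 fold change of *Insig1* was -0.27, -0.33, -0.45 and -0.45. The unadjusted p was then 0.156, 0.0585, 0.0163 and 0.00246 in edgeR, and with no replicate block it was 0.0574. *Srebf1*, the SREBP gene linked to fatty acid synthesis, was at 125 ± 24.8 and 108 ± 22.5 CPM and lower in 3 of 4 pairs (log2 fold change -0.22, unadjusted p = 0.05 in edgeR; -0.14 without replicate 1). *Srebf2*, which is linked to cholesterol synthesis, had a log2 fold change of -0.12 (unadjusted p = 0.205 in edgeR), and *Nr1h2*, which encodes LXR beta, one of -0.03 (unadjusted p = 0.711 in edgeR). The gene for LXR alpha, *Nr1h3*, did not pass the filter on low counts.

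**Figure D4:**
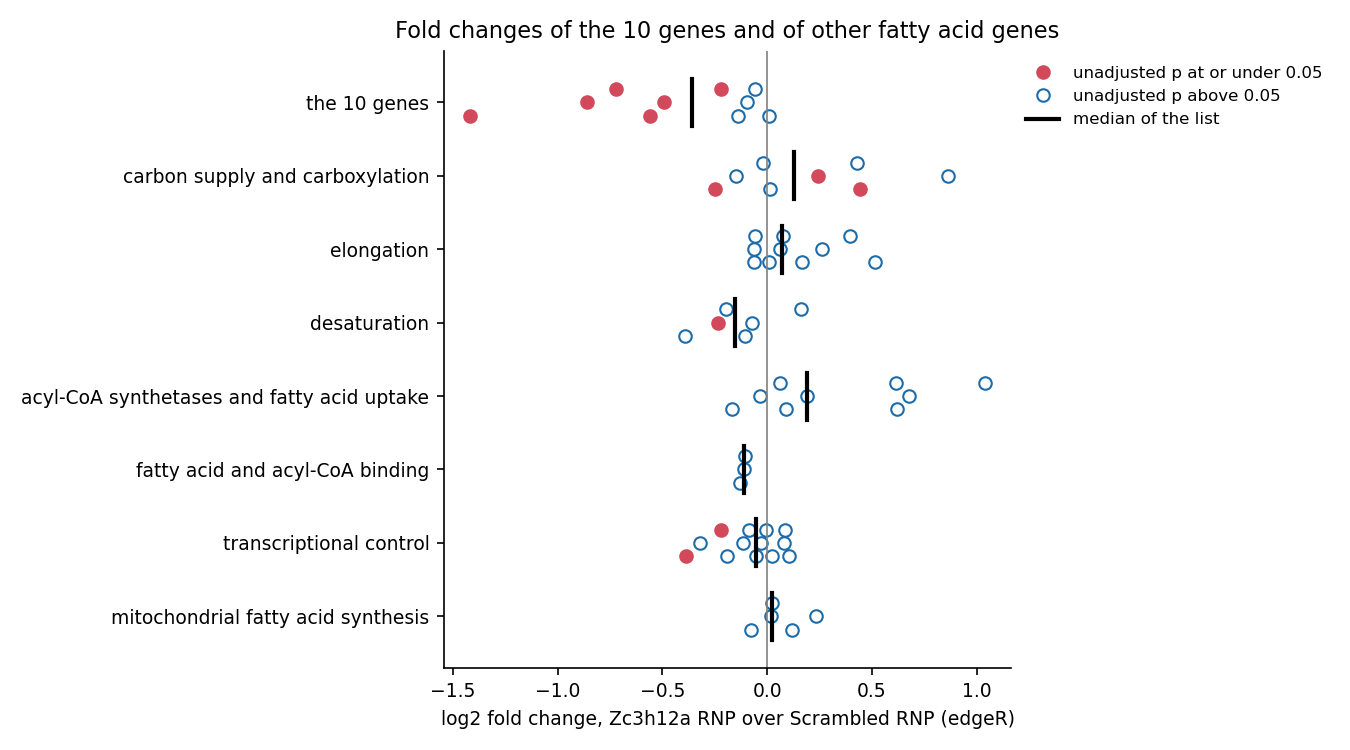
Log2 fold change of the 10 genes and of the tested genes of 7 other lists of fatty acid genes; filled red points have an unadjusted p at or under 0.05 in edgeR, open points do not, and black bars are medians. The 10 genes have a median of -0.36, and the medians of the other lists lie between -0.15 and 0.19. Some of the other genes, such as *Slc27a5* and *Thrsp*, had few counts.

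The profile over the 8 samples was compared by the root mean square difference of log2 CPM, centred on each gene's own mean, over genes with a mean log2 CPM above 3. The gene nearest to *Scd1* among 8659 others was *Scd2*, at 0.33. *Fads2* took rank 16 (0.64) and *Acsl3* rank 18 (0.65), while *Fabp5* took rank 3839. The 6 genes outside the 10 with the profile nearest to *Scd1* were *Tsc22d3* (0.41), *Erv3* (0.47), *Gm6093* (0.49), *Aldoc* (0.49), *Il2ra* (0.53) and *Ndrg1* (0.55). The profile of *Fasn* was nearest to those of *Ssh3* (0.08), *Cd151* (0.09), *Galnt4* (0.09), *Exo5*, *Crebzf* and *Mapk7*. *Acaca* took rank 56 from *Fasn* (0.14), and *Scd1* rank 8589. The measure also reflects how much each gene varies and what the 8 libraries share, and it was not tested.

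The 250 bases before the start of the canonical transcript were searched on both strands, in all 10 genes and in the other promoters of the annotation, for letters known from SREBP-responsive or LXR-responsive promoters. The letters TCACNCCAC of the sterol regulatory element were in 243 of 21757 promoters. Among the 10 genes they were in *Fasn* (TCACCCCAC, 146 to 138 bases before the start) and *Acaca* (TCACACCAC, 98 to 90 bases before it). The match in *Acaca* lies at the end of a stretch of repeated CA. The NF-Y box CCAAT was in 36.5% of promoters and in *Scd1*, *Fads2*, *Acsl3*, *Fasn* and *Fabp5*, with 2 matches each in *Scd1* and *Fads2*. The GC box GGGCGG was in 36.3% of promoters and in *Fads2*, *Acsl3*, *Fasn* and *Fabp5*, and the E-box CACGTG in 6.26% and in *Acaca*. A direct repeat of AGGTCA with 4 bases between was in 0 of the promoters. A match is a description of these letters, and no match says only that they are not in this window. The promoters of *Scd1* (chr19:44396341-44396590, minus strand) and *Fads2* (chr19:10079204-10079453, minus strand) are shown because both hold 2 matches to the NF-Y box. That of *Acaca* (chr11:84063698-84063947, plus strand) is shown because it holds a match to the sterol regulatory element. Whether any match is bound by a protein, or has a part in the levels, was not tested. Each is written 5′ to 3′ on the gene's strand in GRCm39, with the NF-Y box (read on either strand) and the sterol regulatory element in capitals. The windows of *Fasn* and *Scd2* overlap exons of other transcripts of those genes and are not shown, and *Scd1* and *Acaca* have annotated starts further upstream than those used here.
Scd1 promoter: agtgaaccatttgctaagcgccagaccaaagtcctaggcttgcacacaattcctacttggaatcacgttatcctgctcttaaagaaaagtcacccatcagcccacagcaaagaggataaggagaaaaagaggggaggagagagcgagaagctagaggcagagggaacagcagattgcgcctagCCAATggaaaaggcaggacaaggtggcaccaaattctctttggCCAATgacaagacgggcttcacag
Fads2 promoter: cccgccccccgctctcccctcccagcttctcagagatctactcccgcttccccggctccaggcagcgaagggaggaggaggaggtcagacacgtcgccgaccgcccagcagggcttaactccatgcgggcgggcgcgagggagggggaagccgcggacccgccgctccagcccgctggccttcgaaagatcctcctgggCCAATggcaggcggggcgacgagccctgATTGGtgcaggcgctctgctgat
Acaca promoter: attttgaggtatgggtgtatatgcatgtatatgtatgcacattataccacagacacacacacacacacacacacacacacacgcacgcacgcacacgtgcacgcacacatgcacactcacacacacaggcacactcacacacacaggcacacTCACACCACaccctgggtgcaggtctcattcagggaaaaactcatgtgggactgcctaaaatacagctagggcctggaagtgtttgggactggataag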

How the data were processed

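Poly(A) RNA of 8 BMMC samples, 4 per RNP, was sequenced. The authors aligned the reads to GRCm39 and deposited raw counts per gene; the submitters' processing notes name HISAT2 2.2.1, featureCounts 2.0.1 and FastQC 0.11.9. Strand setting and treatment of reads with several matches are not given in the sources used here. The study's methods name a removal of batch effects, without naming the batch, and the counts as deposited are whole numbers that carry no such correction.

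Counts were tested in R 4.3.3 with edgeR 4.0.16 (TMM, filter on low counts by group, quasi-likelihood F test, Benjamini-Hochberg adjustment over 14934 genes) with the replicate number as a block. The threshold was an adjusted p of 0.05 and a log2 fold change of 0.5. Standard errors were obtained from the F statistic (fold change on the log2 scale over the root of F). Log2 CPM used a prior count of 2, and a pair difference is one of log2 CPM within a replicate number. The design names 4 mice, with 4 samples per RNP, and same-numbered samples were taken as pairs. Over all genes tested, deviations from the group means of same-numbered samples correlated at 0.595, 0.075, 0.624 and 0.041 in pairs 1 to 4. Differently numbered samples reached up to 0.398 there, above the values of pairs 2 and 4. Over the 9668 genes with a mean log2 CPM above 2 the values were 0.756, 0.718, 0.728 and 0.719. Differently numbered samples reached at most 0.137 among those genes. So the pairing by number showed in genes with higher counts, and over all genes tested it did not show in pairs 2 and 4. Libraries of the same group differed by more than sampling noise in every comparison.

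The 10 genes, the pathway and marker lists and the tests were chosen with earlier results of these data known. Genes named beside the 10 are the target, pathway genes at an unadjusted p at or under 0.05, regulators and enzymes next to a member, and the 6 profiles nearest to *Scd1* and to *Fasn*. Exon lengths, promoters and repeated 50-base words came from GRCm39 with GENCODE M39. Alternatives were other scalings, other filters, DESeq2 1.42.0, limma-trend (limma 3.58.1), no replicate block, removal of the replicate effect, and leaving out each replicate. Counts of genes at an unadjusted p, or lower in all pairs, under these alternatives were added after seeing the data. The test was checked on simulated counts that held no replicate effect, so the check does not cover the replicate structure of these data. Precision depends on 19610240 to 33986762 counts per library. Figures were drawn with matplotlib 3.10.9.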

Additional observations from a re-analysis of the deposited data

Results flagged for a closer look

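*Zc3h12a* in Scrambled replicate 1, at 24.9 CPM, stood apart from the other 3 Scrambled samples, which lay between 37.1 and 39.3 CPM. The gap to the nearest of them was 0.8458 of the group's range, above Dixon's 95% critical value for 4 samples. Zc3h12a RNP replicate 1 was also the lowest of its group, at 26.8 CPM. Of 22 groups examined (11 genes in both groups) 1 passed this value, and chance gives about 1 in 20, or 1.1 of 22. The levels of the 10 fatty acid genes passed it in 0 groups.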

How the results depend on the processing

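With the replicate block 0 genes were called lower and 0 higher; with no replicate block these counts were again 0 and 0, and the median log2 fold change of the 10 genes, -0.36, lay between -0.41 and -0.28 under all 12 alternatives. Over all genes the calls lower and higher were 1 and 0 with DESeq2's size factors in edgeR, 31 and 9 with no low-count filter, 3 and 0 with at least 10 counts in every sample, 50 and 8 in DESeq2, 1 and 0 in limma-trend, and 79 and 34 after removal of the replicate effect; without 1 replicate they ranged from 0 to 57 and from 0 to 80. Among the 10 genes the calls lower were 3, 1, 4 and 4 with no low-count filter, at least 10 counts, DESeq2 and removal, and 0 to 3 without 1 replicate; 0 were called higher under any of these. At an unadjusted p at or under 0.05, 3 of the 10 genes were lower with no replicate block, against 6 with it. The log2 ratio of *Scd1* to *Scd2*, -0.56, lay between -0.63 and -0.50 without 1 replicate, and an exact permutation of 4 against 4 samples, which sets aside the pairing of replicates, gave p = 0.0286, the smallest value it allows once the groups do not overlap. *Fasn* turned from 0.0084 to -0.012 with DESeq2's size factors, -0.0071 with at least 10 counts and -0.012 in DESeq2; without 1 replicate it ranged from -0.10 to 0.14, *Acaca* from -0.11 to 0.0083 and *Elovl6* from -0.23 to 0.011. With no low-count filter *Acly* was at 0.015 and *Nr1h2* at 0.0041. Without 1 replicate *Acly* ranged from -0.075 to 0.066, *Nr1h2* from -0.10 to 0.028, *Srebf2* from -0.17 to 0.0035 and *Zc3h12a* from -0.075 to 0.0062. The cause of these changes was not tested. The remaining settings changed no direction of *Scd1*, *Scd2*, *Fads1*, *Fads2*, *Elovl5*, *Acsl3* or *Fabp5*. An alternative without length correction for the levels per kb gives no value on that scale and was not run.

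With 4 pairs the exact test of a single value cannot reach 0.05, and the levels of *Acsl3* and *Elovl6*, the lowest counted, carry the most counting error.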
